A study of Mus musculus with 2 samples.

Results

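The genes of the BCL2 family, which set the threshold for death through the mitochondria, were examined in the mouse nerve cell line HT22 after treatment with J147 for 1 h, against HT22 cells given the DMSO vehicle for 1 h. The members were the 4 pro-survival genes Bcl2, Bcl2l1, Bcl2l2 and Mcl1 and the 6 pro-death genes Bcl2l11, Bad, Bak1, Bid, Bmf and Bok, 10 of the 18193 genes in the annotation used. All 35 probe sets annotated to these symbols were taken, whatever their values. The medium of both cultures was DMEM with 10% serum, and the methods of the study give the J147 concentration as 10 μM, against 10 mM in the sample labels. J147 and vehicle had 1 array each, so every difference below is a description of 2 arrays without a replicate check, and J147 cannot be told apart from anything else in which the cultures differed.

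In this family the pro-survival proteins (BCL-2, BCL-XL from Bcl2l1, BCL-W from Bcl2l2, and MCL-1) hold in check the effectors that permeabilize the outer mitochondrial membrane, of which BAK, from Bak1, is one. The BH3-only proteins, among them BIM from Bcl2l11, BAD, BID and BMF, sense stress or loss of growth factors and bind the pro-survival proteins. In neurons, BIM is known as a mediator of the death that follows withdrawal of nerve growth factor, and MCL-1 is a protein of short half-life whose level follows its mRNA and its degradation closely. The arrays measure mRNA and give no protein level or phosphorylation state, which are major controls of several of these proteins.

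Most probe sets gave nearly equal values on both arrays. The SD of the log2 difference, J147 minus vehicle, was 0.18 over the 22545 probe sets that were scored, which means that they had a mean intensity above 100 after each array was scaled to a median of 100. The deposited values have a floor at a log2 intensity of 2.23, at which 46.0% of the probe sets on the J147 array and 46.3% on the vehicle array lay. The array medians lay close to it, at 2.31 for J147 and 2.30 for vehicle, so a scored probe set can be near the floor. Of the scored probe sets, 5018 had a mean log2 level from 2 to 4, and 49.7% of these had identical values on both arrays. Among the control probe sets, 18S rRNA had a median log2 difference of -0.62, the labelling spikes of -0.14 and the hybridization spikes of 0.14, and the part of these shifts in the differences below was not tested. Of the marker genes used to check the cell type, 2 of 8 for neurons lay above the floor on at least 1 array, with Map2, Snap25, Syt1, Rbfox3, Nefl and Dcx at it on both. All 7 for fibroblasts lay above it, as did 2 of 7 for astrocytes, 2 of 7 for microglia, none of 4 for oligodendrocytes and none of 5 for endothelium. The 8 neuronal markers had a summed log2 level of 26.1 for J147 and 25.8 for vehicle, and the 7 fibroblast markers of 75.9 for J147 and 76.6 for vehicle.

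Of the 10 members, each read from its brightest probe set, only Bcl2l11 differed by 1.2-fold or more, and it was 1.49-fold higher with J147. None was at least 1.2-fold lower. Over all 10611 scored genes, 3.69% were at least 1.2-fold higher and 5.99% at least 1.2-fold lower. Mcl1 was 1.13-fold higher, and all 6 of its probe sets were higher with J147. Counted as probe sets, 32 of the 35 were scored. Of these, 4 were at least 1.2-fold higher, 3 of them of Bcl2l11 and 1 of Bcl2l2, and none was at least 1.2-fold lower, while over all scored probe sets the shares were 5.19% and 5.89%. The Bcl2l2 probe set passed the filter on intensity only through the J147 array, with a scaled intensity of 149 for J147 and 95.4 for vehicle. When both values had to lie 1 log2 unit above the floor, 2 member probe sets were at least 1.2-fold higher, both of Bcl2l11. No member probe set reached 2-fold, as was so for all but 0.146% of the scored probe sets.

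**Figure D1:**
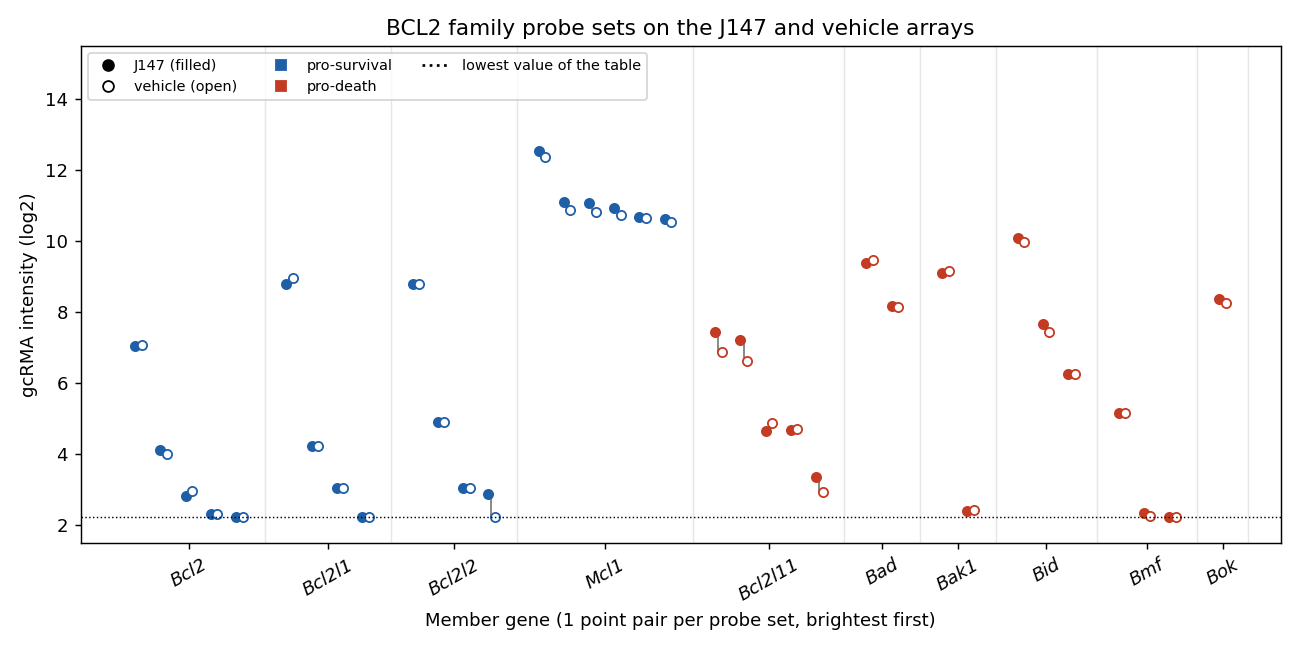
The vertical axis gives the deposited gcRMA log2 intensity and the horizontal axis the 35 member probe sets, grouped by gene, on the J147 array (filled circles) and the vehicle array (open circles), 1 array each, with blue for pro-survival and red for pro-death genes. Each probe set has a grey line between its values, and a dotted line marks the floor, 2.23. The longest grey lines belong to Bcl2l2 probe set 1451029_at, whose vehicle value is at the floor, and to Bcl2l11 probe sets 1435448_at and 1456005_a_at.

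Bcl2l11, which encodes BIM, a BH3-only protein that binds all pro-survival members, had 5 probe sets, and they did not move together. Probe set 1435448_at, the brightest, had a log2 intensity of 7.46 for J147 and 6.89 for vehicle. Probe set 1456005_a_at had 7.23 for J147 and 6.63 for vehicle, a fold of 1.52. These are the 2 brightest probe sets of the gene, and both were higher with J147 by similar amounts, with log2 differences of 0.57 and 0.60. Among the 4855 scored probe sets with a mean log2 level from 6 to 8, 7.11% were at least 1.2-fold higher and 1.22% at least 1.5-fold higher. The other 3 probe sets of Bcl2l11 were dimmer and lay on both sides of 0. Probe set 1435449_at had a log2 intensity of 3.36 for J147 and 2.94 for vehicle. Probe set 1456006_at had 4.68 for J147 and 4.71 for vehicle. Probe set 1426334_a_at had 4.65 for J147 and 4.89 for vehicle, 1.18-fold lower with J147. The log2 differences of the gene thus spanned 0.84 units, and of the 5194 scored genes with at least 2 scored probe sets 5.93% spanned 0.5 units or more. Which Bcl2l11 transcripts each probe set detects was not analysed here.

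Mcl1, whose product binds BIM and BAK, had 6 scored probe sets, the most of any member. Its brightest probe set, 1448503_at, had a log2 intensity of 12.55 for J147 and 12.37 for vehicle. Probe set 1437527_x_at had 11.08 for J147 and 10.84 for vehicle, the largest difference of the gene at 0.25. Probe set 1456243_x_at had 11.10 for J147 and 10.88 for vehicle. These values and that of probe set 1456381_x_at, at 10.94 for J147 and 10.75 for vehicle, gave folds from 1.13 to 1.19. The remaining probe sets were nearly level, 1416880_at with 10.62 for J147 and 10.53 for vehicle, and 1416881_at with 10.67 for J147 and 10.66 for vehicle. No probe set of Mcl1 was lower with J147. Of the 143 scored genes with at least 6 scored probe sets, 4.20% had all of them higher with J147. The log2 differences varied less at high levels, with an SD of 0.13 over the 2933 scored probe sets from 10 to 12 and of 0.09 over the 1334 at 12 or above. Probe sets of 1 gene on the same pair of arrays are not replicates, and those with the suffix _x_at can share probes with each other. The _x_at probe sets had the largest log2 differences of Mcl1, at 0.25, 0.21 and 0.20, against 0.18, 0.09 and 0.02 for the others. Whether they also detect other transcripts was not analysed here.

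The promoters of these genes are shown because Bcl2l11 had the largest difference of the members by the brightest probe set and Mcl1 had all its probe sets higher with J147. The sequences are from RefSeq, build GRCm38.p6, and hold the 250 bases before an annotated start, with matches to the motifs searched in capitals. Both strands were searched for the EGR motifs GCGTGGGCG and GCGGGGGCG, the FOXO motif TGTTTAC, the CRE motif TGACGTCA, the AP-1 motif TGANTCA and the ETS motif CCGGAAG.
Bcl2l11, chr2:128125788-128126037, plus strand: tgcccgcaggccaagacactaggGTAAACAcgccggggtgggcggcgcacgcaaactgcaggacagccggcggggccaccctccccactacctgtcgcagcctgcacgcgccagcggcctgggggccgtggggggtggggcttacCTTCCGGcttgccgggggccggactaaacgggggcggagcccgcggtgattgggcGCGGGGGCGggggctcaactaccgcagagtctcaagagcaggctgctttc
Mcl1, chr3:95658471-95658720, plus strand: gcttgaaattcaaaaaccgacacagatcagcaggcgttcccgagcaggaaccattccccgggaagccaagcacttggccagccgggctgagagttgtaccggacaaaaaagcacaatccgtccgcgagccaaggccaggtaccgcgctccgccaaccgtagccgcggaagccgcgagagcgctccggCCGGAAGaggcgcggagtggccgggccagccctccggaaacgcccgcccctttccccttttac

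The Bcl2l11 window held the FOXO motif on the minus strand, 227 to 221 bases before the start, the ETS motif on the minus strand, 105 to 99 bases before it, and the second EGR motif on the plus strand, 50 to 42 bases before it. The other Bcl2l11 start in the table had none of the motifs in its window. The Mcl1 window held the ETS motif alone, 63 to 57 bases before the start. No match overlapped another, and the Mcl1 window lies inside the annotated span of the gene, which begins further upstream. Of all 32851 windows of the table, 2.57% held that EGR motif, 3.17% the FOXO motif and 6.91% the ETS motif. Of the same windows, 0.536% held the first EGR motif, 1.55% the CRE motif and 6.75% the AP-1 motif. The members had 16 windows in all, of which 1 held the second EGR motif, 1 the FOXO motif and 2 the ETS motif. No window of the other 8 genes held any of the motifs. The share of all windows without any motif was not counted, so this absence has no background beside it. A match describes the letters of the window and is not a measured binding site.

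The other pro-survival genes differed little. Bcl2l1, which encodes BCL-XL, had a log2 intensity of 8.81 for J147 and 8.98 for vehicle by its brightest probe set 1420888_at, 1.12-fold lower with J147. Its probe sets 1420887_a_at and 1426191_a_at had 1 identical value on both arrays, 4.23 and 3.05, and 1426050_at was at the floor. Identical values on both arrays were found for 18.9% of all scored probe sets, so they say little about a change. Bcl2, the founding member of the family, had 7.04 for J147 and 7.08 for vehicle by probe set 1457687_at. Its dimmer probe sets went both ways, 1437122_at with 4.14 for J147 and 4.01 for vehicle, and 1440770_at with 2.84 for J147 and 2.98 for vehicle. Of its last probe sets, 1422938_at was identical at 2.31 and 1443837_x_at was at the floor.

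Bcl2l2, which encodes BCL-W, had a log2 intensity of 8.80 for J147 and 8.81 for vehicle by probe set 1423572_at. A dim probe set of the gene, 1451029_at, had 2.88 for J147 and was at the floor for vehicle, with a log2 difference of 0.65, the largest of any member probe set. A difference from a value at the floor has no settled size. Probe sets 1430453_a_at and 1430454_x_at were identical on both arrays, at 4.91 and 3.05. The brightest probe set of the gene and its dimmest one therefore gave different answers, and only the brightest lies far above the floor.

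**Figure D2:**
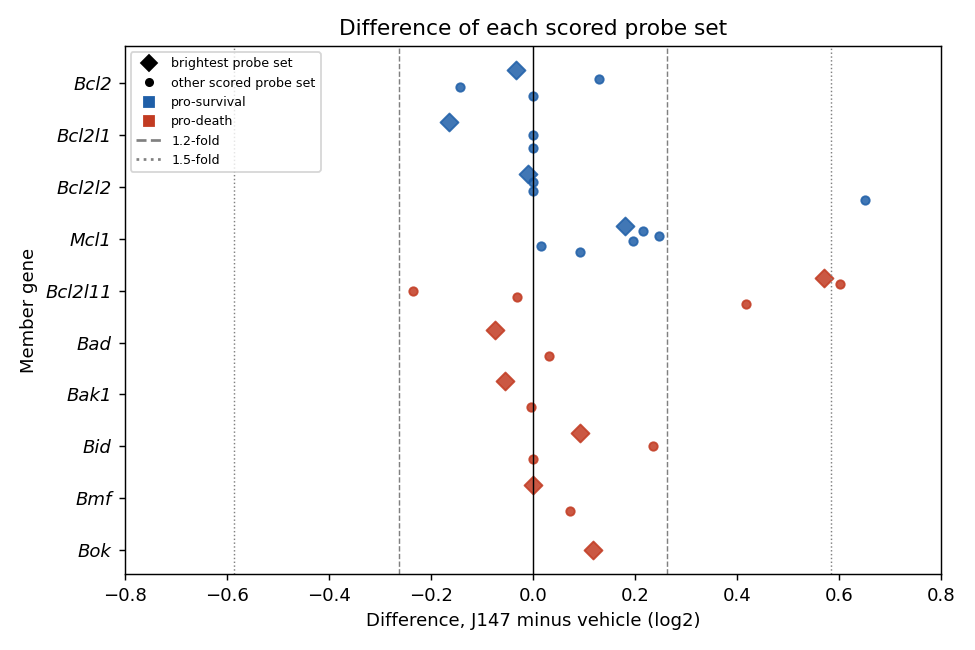
The horizontal axis gives the log2 difference of J147 minus vehicle for the 32 scored probe sets, arranged by member on the vertical axis, with diamonds for the brightest probe set of each gene, circles for the others, blue for pro-survival and red for pro-death genes. Dashed lines mark 1.2-fold and dotted lines 1.5-fold, and all 6 points of Mcl1 lie right of 0 while those of Bcl2l11 run from -0.24 to 0.60.

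Among the pro-death genes other than Bcl2l11, Bid encodes the BH3-only protein that caspase 8 cleaves to link death receptors with mitochondria. Its probe set 1417045_at had a log2 intensity of 10.09 for J147 and 9.99 for vehicle. Probe set 1448560_at had 7.68 for J147 and 7.45 for vehicle, a fold of 1.18, and 1447873_x_at was identical at 6.25. Neither of the differing probe sets reached 1.2-fold. Bok, an effector-like relative of BAK, was measured by the single probe set 1417040_a_at, with 8.37 for J147 and 8.25 for vehicle, a fold of 1.09.

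Bad encodes a BH3-only protein that growth factor kinases inactivate by phosphorylation, and its mRNA differed by little. Probe set 1416583_at had a log2 intensity of 9.39 for J147 and 9.46 for vehicle, and 1416582_a_at had 8.17 for J147 and 8.14 for vehicle. Bak1 had 9.11 for J147 and 9.17 for vehicle by probe set 1418991_at, while its other probe set, 1425716_s_at, was near the floor at 2.42 on both arrays. Bmf, a BH3-only gene tied to loss of cell attachment, had 1 identical value of 5.15 by its brightest probe set 1454880_s_at. Its probe set 1458325_x_at was near the floor, with 2.35 for J147 and 2.28 for vehicle, and 1422995_at was at it. No probe set of Bmf thus both differed and lay well above the floor.

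Set side by side, the pro-survival and pro-death genes overlapped. By the brightest probe sets, the 4 pro-survival genes had log2 differences from -0.16 to 0.18 with a median of -0.02, and the 6 pro-death genes from -0.07 to 0.57 with a median of 0.05. The median over all 10611 scored genes was 0. Of the pro-survival genes 1 was higher with J147, Mcl1, and 3 were lower, while of the pro-death genes 3 were higher, 2 were lower and 1 was identical. Over all 10611 scored genes, 4115 were higher, 4941 lower and 1555 identical. Bcl2, at -0.03, and Bcl2l2, at -0.01, were lower by far less than the SD of 0.18 over all scored probe sets. Bcl2l2, with a log2 difference of -0.01 by its brightest probe set, had 0.16 by the mean of its scored probe sets and 0.65 by the one with the largest difference. When each gene was read as the mean of its scored probe sets, the medians were 0.07 for pro-survival and 0.07 for pro-death genes. At least 1.2-fold higher were none of the 4 pro-survival and 1 of the 6 pro-death genes, which differ by the single gene Bcl2l11. The share over all scored genes was 3.69%.

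**Figure D3:**
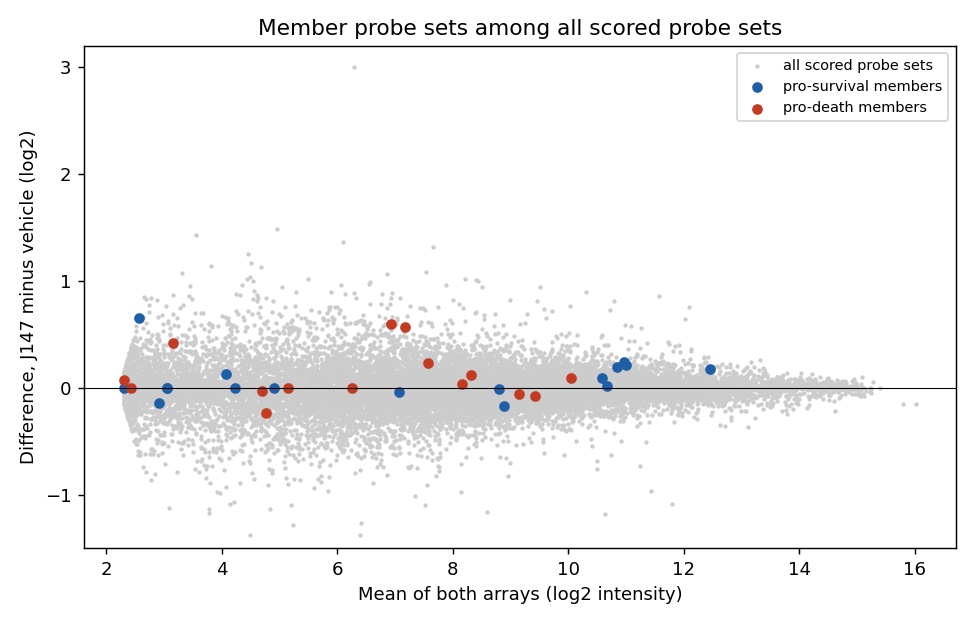
The vertical axis gives the log2 difference of J147 minus vehicle and the horizontal axis the mean log2 intensity of both arrays for the 22545 scored probe sets (grey), with the member probe sets in blue for pro-survival and red for pro-death genes. The scatter of all probe sets narrows above a level of 10, where the Mcl1 probe sets lie at or above 0. Near a level of 7, 2 probe sets of Bcl2l11 lie in the upper part of the scatter, with other probe sets above them.

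The rest of the apoptosis machinery was followed in 7 lists, whose genes without a single-gene probe set in the annotation used were not analysed here. As background for the counts of every list, 3.69% of all scored genes were at least 1.2-fold higher and 5.99% at least 1.2-fold lower. Of the other BCL2 relatives 3 of 10 were scored, Bcl2l12, Bcl2l13 and Bcl2l14. Bax, Bcl2a1a, Bcl2a1b, Bcl2a1c and Bcl2a1d had no single-gene probe set, so their mRNAs were not examined. The brightest probe set of each had identical values on both arrays, while Bcl2l12 and Bcl2l13 had 2 scored probe sets each. When identical values were left out, a setting chosen after seeing the data, the median of this list was 0.08. Of 7 further BH3-only genes and relatives 3 were scored, with a median of -0.19, 1 at least 1.2-fold lower with J147 and none higher. Bbc3, which encodes PUMA, had a log2 intensity of 7.40 for J147 and 7.70 for vehicle, 1.23-fold lower. Bnip3, a mitochondrial protein of mitophagy, had 10.88 for J147 and 11.07 for vehicle. Pmaip1, Bik and Hrk had no scored probe set. Of the 12 apoptosome and mitochondrial genes 11 were scored, with a median of 0.01, none at least 1.2-fold higher and 1 lower. The one was Apaf1, the scaffold that activates caspase 9, with 7.81 for J147 and 8.29 for vehicle by probe set 1452870_at, 1.40-fold lower, although its probe set 1450223_at near the floor was identical. Ppif, which encodes cyclophilin D, was 1.16-fold higher by probe set 1416940_at and level by 1438955_x_at, with a log2 difference of -0.01.

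Of 8 caspases 6 were scored, with a median of 0.03, 1 at least 1.2-fold higher and none lower. Casp4, an inflammatory caspase, had a log2 intensity of 4.84 for J147 and 4.53 for vehicle, 1.24-fold higher at a low level. Casp9, the initiator of the mitochondrial pathway, had 6.28 for J147 and 6.42 for vehicle. Of the 13 inhibitors of apoptosis and related genes 12 were scored, with a median log2 difference of -0.12, none at least 1.2-fold higher and 2 lower, which were Birc2 and Bag3. Birc2, which encodes the ubiquitin ligase cIAP1, had 7.12 for J147 and 7.76 for vehicle by its single probe set 1418854_at, 1.56-fold lower, where 0.782% of all scored genes were at least 1.5-fold lower. Bag3, a co-chaperone of HSP70 that was named after its value was seen, was 1.28-fold lower. Of 12 genes of the death receptor pathway 9 were scored, with a median of 0, none at least 1.2-fold higher and 1 lower. Fas, the receptor of Fas ligand, had 8.70 for J147 and 9.20 for vehicle, 1.41-fold lower, and Traf2, an adaptor of TNF receptors, was 1.10-fold lower.

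Of 22 genes whose products act on the members or transcribe them, 21 were scored, with a median of -0.01, 2 at least 1.2-fold higher and 3 lower. Pim1, a kinase that phosphorylates BAD, had a log2 intensity of 6.73 for J147 and 5.85 for vehicle by probe set 1435458_at, 1.85-fold higher, where 0.565% of all scored genes were at least 1.5-fold higher. Its other probe set, 1423006_at, was level at 3.78 on both arrays. The next genes were named after their values were seen. Foxo1 and Foxo3 encode factors known to transcribe Bcl2l11, and their brightest probe sets were lower with J147. For Foxo3, probe set 1434831_a_at had 8.74 for J147 and 8.93 for vehicle, and 1434832_at had 7.26 for J147 and 7.72 for vehicle, while 1450236_at was level, with 4.38 for J147 and 4.39 for vehicle. For Foxo1, which was at low levels, probe set 1416983_s_at had 4.47 for J147 and 4.77 for vehicle. The brightest Bcl2l11 probe sets were thus higher on the array on which Foxo1 and Foxo3 were lower, and the relation of these mRNAs was not tested.

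**Figure D4:**
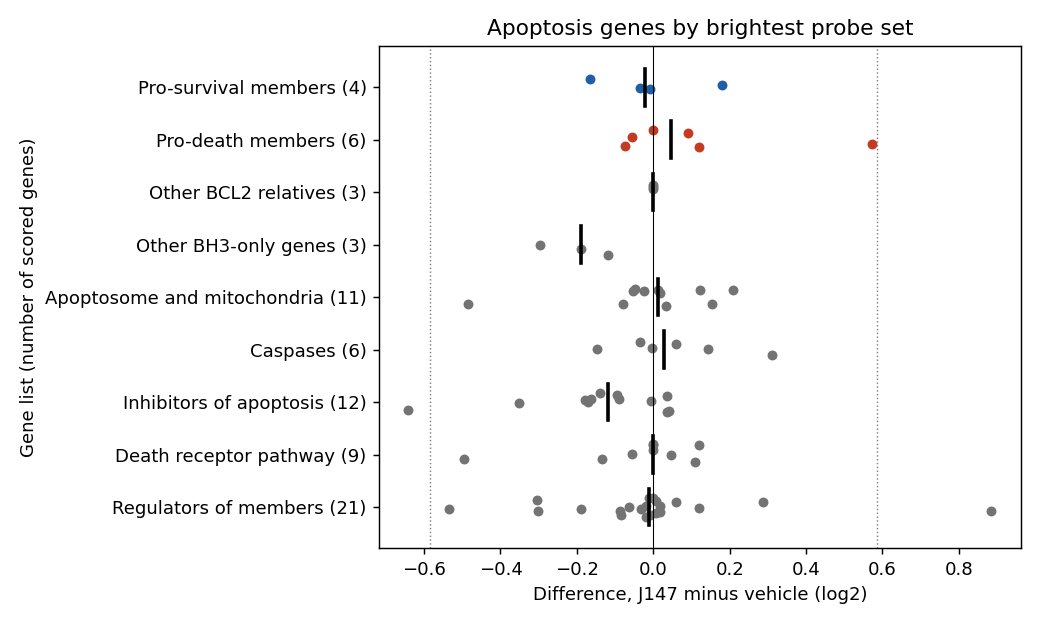
Points are scored genes read from their brightest probe set, placed by the log2 difference of J147 minus vehicle on the horizontal axis, in rows for the members and 7 apoptosis lists with their numbers of scored genes. Black bars are medians and dotted lines mark 1.5-fold. Pim1 at 0.88 and Birc2 at -0.64 are the genes past 1.5-fold, and Bcl2l11 at 0.57 lies just inside it.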

How the data were processed

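HT22 RNA was hybridized to Affymetrix Mouse430_2 GeneChips, 1 array per condition. Probe-set summaries by gcRMA, run by the authors in R, were deposited as log2 intensities. Affymetrix Expression Console 1.0 is also named in the submitters' processing notes. The gcRMA version and a genome build are not given in the sources used here. Differences are the deposited log2 value for J147 minus that for vehicle. After the study's methods, the 45037 non-control probe sets of each array were scaled to a median of 100, and 22545 probe sets whose mean intensity then exceeded 100 were scored. This scaling was used for the filter alone. The annotation gives 1 gene symbol to 34945 of the 45037, several to 932 and none to 9160. Symbols were updated by Entrez number to a RefSeq table of GRCm38.p6. The brightest probe set by mean level stood for a gene.

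Counts use folds of 1.2, 1.5 and 2, with the share of all scored probe sets or genes as background. No p-value is given, since there is no replicate. All 10 members are named with every probe set. From each of 7 apoptosis lists the genes at least 1.5-fold different are named, or else the 2 with the largest difference. The members, lists, folds and promoter motifs were chosen with earlier results of these data known. The alternatives were scaled values, quantile normalization, removal of a lowess trend with level (span 0.3), a pseudocount of 50, no filter, both values at least 1 log2 unit above the lowest value, and other ways to read a gene. Python 3.11.15, numpy 2.4.6, pandas 2.3.3, statsmodels 0.14.6 and matplotlib 3.10.9 were used, and the calculations were tested on simulated data.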

Additional observations from a re-analysis of the deposited data

How the results depend on the processing

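The alternatives gave 270 values. Of these, 248 lay near the value in the report (counts within 1.5 times, medians within 0.05, a member within 1 SD of scored probe sets of like level) and 22 moved. Bcl2l11 stayed higher with J147 under every alternative, but most of them read the same probe set on the same 2 arrays. Its constant sign is therefore no independent check. No paired analysis was possible because each condition has 1 array. The count of members at least 1.5-fold higher was 0, and it became 1 by quantile normalization and by the lowess curve and 2 by the probe set with the largest difference, by which the count at 1.2-fold also became 2. The count of member probe sets at least 1.5-fold higher was 2, where 200 of all 22545 scored probe sets were. It became 3 by quantile normalization and by the lowess curve and 0 with the pseudocount. It became 1 when both values had to lie 1 log2 unit above the floor or when suffixed probe sets were left out. The 1 left without suffixed probe sets was 1451029_at of Bcl2l2, whose vehicle value is at the floor. With both values that far above the floor, 2 in place of 4 member probe sets were at least 1.2-fold higher. The pro-survival median became 0.0731 by the mean over a gene's probe sets and 0.0523 by the probe set with the largest difference, and the pro-survival minus pro-death median, -0.07 as reported, became 0.000418 by that mean. By the probe set with the largest difference, Bcl2l2 turned to 0.65 and Bid had 0.24, and by the mean Bcl2l2 turned to 0.16 and Bcl2l11 had 0.27. The log2 difference of Bcl2l11 ranged from 0.27 to 0.60 and that of Mcl1 from 0.16 to 0.25. Among the lists, the median of the further BH3-only genes became -0.0597 with no filter, that of the inhibitors of apoptosis -0.0474 by the mean or by the largest difference, that of the apoptosome genes -0.0479 and that of the regulators -0.12 by the largest difference. Without identical values, a setting chosen after seeing the data, the median was 0.0772 for the other BCL2 relatives and -0.0553 for the death receptor pathway. Causes were not tested, apart from a pseudocount, a stricter filter and the largest difference, which move counts by construction. Levels near the floor and the number of arrays limit the precision.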

Other observations

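Other regulators of the members, named after their values were seen, went both ways. Ddit3, which encodes CHOP, a factor known to raise Bcl2l11 under stress of the endoplasmic reticulum, had a log2 intensity of 8.49 for J147 and 9.03 for vehicle by probe set 1417516_at, and of 4.68 for J147 and 4.49 for vehicle by 1443897_at. Both probe sets of Trib3, a pseudokinase induced with Ddit3, were lower with J147, by log2 differences of -0.30 and -0.22. Mapk8, which encodes the kinase JNK1, had 4 scored probe sets, 3 higher with J147 and 1 lower. Its brightest probe set 1420932_at was 1.22-fold higher, and the next, 1437045_at, had 7.17 for J147 and 6.91 for vehicle. The lower one was the dimmer 1420931_at, 1.44-fold lower. Cflar, the FLIP inhibitor of caspase 8, is from the death receptor list and was also named after its values were seen. It had 7.04 for J147 and 7.09 for vehicle by its brightest probe set 1424996_at. Of its 5 scored probe sets 2 were higher with J147 and 2 lower. Probe set 1425686_at had 5.18 for J147 and 5.34 for vehicle. The dim probe set 1449317_at was 1.54-fold higher, with 3.80 for J147 and 3.18 for vehicle.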
